A study of Mus musculus with 3 samples.

Results

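The data describe the peaks that Nrf2 chromatin immunoprecipitation gave around Hmox1, the gene of heme oxygenase 1, in C2C12 myotubes. C2C12 cells are an established line of mouse myoblasts, and in low serum they fuse into multinucleate myotubes. The cells, wild type by their labels, had differentiated for 72 h and then received 100 nmol/L of CDDO-Im, a synthetic triterpenoid that activates Nrf2, for 3 h. The labels name 2 replicates precipitated with the anti-Nrf2 antibody D1Z9C and 1 input. The analysis used a separate peak list for each ChIP replicate and no reads of the input. Every sample received CDDO-Im, so the lists show where signal lay in treated cells and hold no untreated value to set beside it.

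The members are all listed peaks that overlap chromosome 8 from 77550000 to 77680000 in the mm9 build, a window of 130 kb around Hmox1. Of the 2892 peaks of replicate 1, 2 lay in the window, and of the 3593 peaks of replicate 2, also 2. The locus was chosen by position after the scores of its peaks in both lists were known to be high, so scores and ranks are given as a description with no test. The start site of Hmox1, on the plus strand, was taken at 77617500. That position is known only to about 100 bp, and distances to it are approximate to that extent. Positions count from 1.

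Heme oxygenase 1 breaks heme down to biliverdin, carbon monoxide and free iron. Its gene is among the best known targets of Nrf2, a transcription factor that the adaptor Keap1 keeps low in unstressed cells and that binds antioxidant response elements together with small Maf proteins. Bach1, a heme-binding repressor, occupies the same kind of element when heme is scarce. The mouse gene is known for a pair of distal upstream enhancers, usually called E1 and E2, that carry such elements and respond to many inducers of oxidative stress.

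Both lists placed 2 peaks, each under 1 kb wide, upstream of Hmox1 and none elsewhere in the window. The peak nearer the gene was centred 3.9 kb upstream of the start site in each replicate (mean 3.88 kb ± 0.036, SD, n = 2). The farther peak was centred 9.6 kb upstream in each (mean 9.63 kb ± 0.009, SD, n = 2). The pair lies where the enhancers E1 and E2 are known from other work, by approximate distance, but the peaks are called here by position only.

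The nearer peak spanned 77613208 to 77613971 in replicate 1, a width of 764 bp, and 77613216 to 77614066 in replicate 2, a width of 851 bp. Its edge facing the gene lay 3.5 kb from the start site in replicate 1 and 3.4 kb in replicate 2. The farther peak spanned 77607456 to 77608280 in replicate 1, a width of 825 bp. In replicate 2 it spanned 77607411 to 77608351, a width of 941 bp. Its edge facing the gene lay 9.2 and 9.1 kb from the start site. In both lists the farther peak was thus the wider of the pair, by 61 bp in replicate 1 and by 90 bp in replicate 2.

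The centres of the pair were 5721.5 bp apart in replicate 1 and 5760 bp apart in replicate 2. The stretch between their facing edges measured 4927 and 4864 bp and held 0 listed peaks in each replicate.

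**Figure D1:**
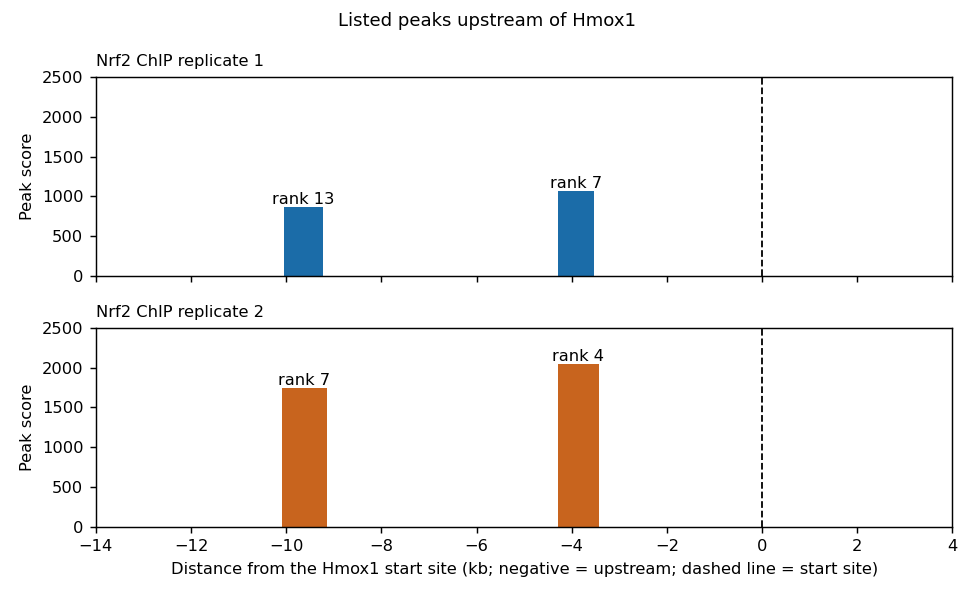
Listed peaks between 14 kb upstream and 4 kb downstream of the Hmox1 start site (horizontal axis, kb), with 1 panel per ChIP replicate. Each bar spans a peak from start to end, its height is the authors' score, and the number above it is the rank of that score in its own list. The bars stand at the same 2 places in both panels, the nearer one is the taller in each, and none touches the start site.

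The start site itself held no listed peak. In each replicate 0 peaks overlapped the 1 kb on either side of it, 0 lay between the nearer peak and the start site, and 0 lay from the start site to the downstream end of the window, the stretch that takes in the start of the gene. The stretch from the upstream end of the window to the pair also held 0. The lowest score in either list is 50, so signal under the caller's threshold is not seen in these lists and a weaker site at the promoter is not detectable from them. By the gene order of the GRCm38.p6 RefSeq table, Tom1 is the next protein-coding gene on the side of the pair and Mcm5 the next one beyond Hmox1. Tom1 takes part in endosomal sorting, and Mcm5 is a subunit of the MCM helicase that unwinds DNA for replication. No mm9 annotation was used here, so whether the farther peak reaches into another transcript was not examined.

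Each peak of the pair carried a score from the authors' peak caller, a value that rises as the caller's p-value falls (-10 log10 p, as read here). Scores depend on depth, which is unknown for these samples, and were compared within a list only. The nearer peak scored 1073.04 in replicate 1 and ranked 7 of 2892 peaks there. In replicate 2 it scored 2050.93 and ranked 4 of 3593. The farther peak scored 868.54 with rank 13 in replicate 1, and 1748.6 with rank 7 in replicate 2. All 4 peaks thus fell within the highest 0.45% of their own list.

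In each list the nearer peak had the higher score. The ratio of the nearer to the farther score was 1.24 in replicate 1 and 1.17 in replicate 2 (mean 1.2 ± 0.044, SD, n = 2). Divided by width, the scores were 1.4 per bp at the nearer peak and 1.05 per bp at the farther one in replicate 1, and 2.41 and 1.86 per bp in replicate 2. By score per bp the nearer peak kept rank 7 in replicate 1 and rank 4 in replicate 2, while the farther peak stood at rank 19 and rank 10. This order was not tested.

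Within chromosome 8 the pair took the first 2 places in both lists. The nearer peak was the highest and the farther peak the next of 81 peaks on the chromosome in replicate 1 and of 137 in replicate 2. In replicate 1 the third highest peak of the chromosome scored 813.96, close under the farther Hmox1 peak. It was 2385 bp wide, at 19689904 to 19692288, and had 18 other peaks within 100 kb. In replicate 2 the third highest, at 88081290 to 88082148, scored 999.76 and was 859 bp wide, with 0 other peaks within 100 kb. The pair therefore stood well above the rest of its chromosome in replicate 2, whereas in replicate 1 a wide peak from a crowded stretch came near it.

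The pair was alone on its part of the chromosome. Each of its peaks had 1 other listed peak within 100 kb, which was its partner, and this count stayed at 1 when the distance was raised to 500 kb. Few neighbours were common, both among strong peaks and over whole lists. In the top 5% by score, 64 of 144 peaks of replicate 1 had 0 or 1 other peak within 100 kb. In replicate 2 it was 129 of 179. Over all listed peaks the same held for 1255 of 2892 in replicate 1 and for 2152 of 3593 in replicate 2. In replicate 1 the share in the top 5% was thus close to that of the whole list. Outside the window, the nearest listed peak of replicate 1 lay 5.5 Mb upstream of the pair (72105756 to 72105995, score 144.42) and 7.82 Mb downstream (85438618 to 85439129, score 97.62). In replicate 2 the nearest lay 3.24 Mb upstream (74366968 to 74367405, score 58.2) and 3.02 Mb downstream (80634029 to 80634616, score 76.45). The pair was therefore the only listed signal in a stretch of 13.3 Mb in replicate 1 and of 6.27 Mb in replicate 2. The gaps beside it ranked 8 (upstream) and 7 (downstream) among the 80 gaps between neighbouring peaks of chromosome 8 in replicate 1. In replicate 2 they ranked 9 and 11 among 136 gaps. Longer gaps exist on the same chromosome, up to 16.7 Mb in replicate 1 and 13.4 Mb in replicate 2.

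**Figure D2:**
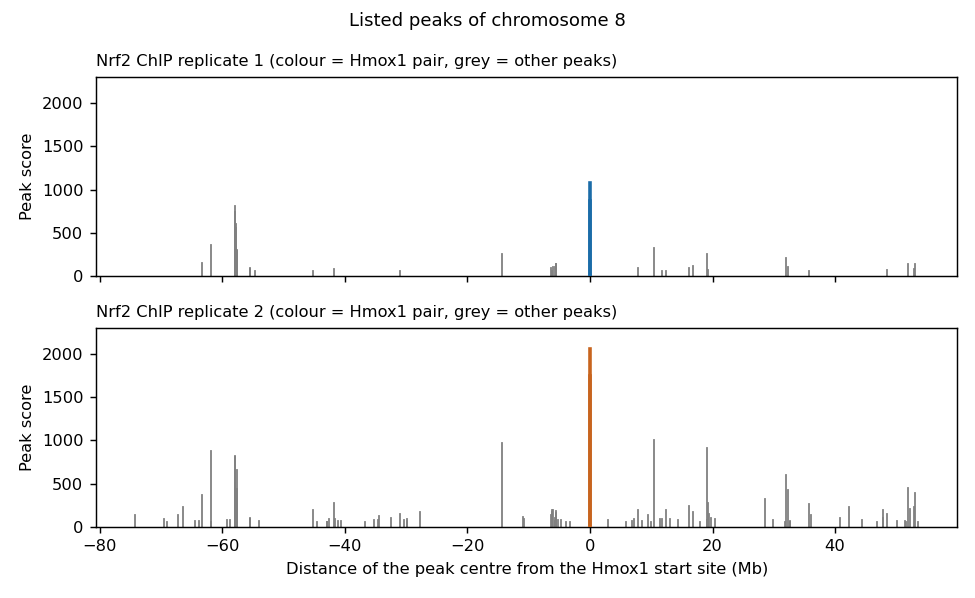
Every listed peak of chromosome 8, as a line at the distance of its centre from the Hmox1 start site (horizontal axis, Mb) with the score as its height, 1 panel per replicate. The Hmox1 pair (colour, drawn as 1 line at this scale) is the tallest signal in both panels, and no grey line stands within 3 Mb of it in either.

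The replicates placed each centre of the pair within 51.5 bp of each other. Both peaks of each list overlapped their counterpart in the other list. Over whole lists, an overlap of at least 1 bp was found for 66.1% of peaks in replicate 1 and for 50% in replicate 2. Where the score reached 500 or more, the share was 100% in each list (36 of 36 and 171 of 171). Every listed peak as strong as the pair thus had a counterpart, and the overlap alone sets the pair apart from none of them. At the farther peak the replicate 1 interval lay wholly inside that of replicate 2, and the overlap of 825 bp made up 87.67% of the replicate 2 peak. At the nearer peak the overlap was 756 bp, which was 98.95% of the replicate 1 peak and 88.84% of the replicate 2 peak.

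The centres of the farther peak differed by 13.0 bp between replicates and those of the nearer peak by 51.5 bp. Over the 29 shared regions with 1 peak of each replicate and a score of at least 500 in both, the pair included, the median difference was 39.5 bp (quartiles 23.5 and 73 bp). Of the other 28 regions, 3 had a smaller difference than the farther peak and 25 a larger one. For the nearer peak 19 were smaller and 9 larger. The shift at the nearer peak came from its gene-facing edge, which in replicate 2 reached 95 bp further toward the gene, while its upstream edges differed by 8 bp. At the farther peak replicate 2 reached further on both sides, by 45 bp upstream and 71 bp downstream.

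Widths were not used to choose the locus. The replicate 2 peak was 1.14 times as wide as that of replicate 1 at the farther site and 1.11 times at the nearer one. The same ratio had a median of 1.3 over all 1613 shared regions with 1 peak of each replicate, and 1.14 over the 29 regions that score at least 500 in both. The ratios of the pair were thus close to the median of the 29 strong regions, which include the pair. Over the 187 such regions that score at least 200 in both, the median was 1.23. It was 1.37 over the 870 on chromosomes 2 to 19. Why the median differs between these sets was not tested.

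By width, widest first, the farther peak ranked 383 of 2892 in replicate 1 and 503 of 3593 in replicate 2, and the nearer peak 441 and 648. All 4 were thus wider than the median of their whole list, which was 455.5 bp in replicate 1 and 612 bp in replicate 2. Set beside the 100 peaks of the same list nearest in score, their widths lay between the quartiles, which were 688.8 and 1840 bp in replicate 1. In replicate 2 the lower quartile was 791.5 bp for both, and the upper one 967.2 bp for the farther and 970.2 bp for the nearer peak. In replicate 1 these 100 peaks had a median width of 822.5 bp for the farther peak, with 52 of the 100 narrower than it, and of 824 bp for the nearer peak, with 44 narrower. When the peaks compared were taken from chromosomes 2 to 19 alone, the replicate 1 medians were 721 and 724.5 bp, so that the nearer peak was wider than the median instead of narrower. In replicate 2 the medians were 862.5 bp, with 71 narrower than the farther peak, and 870 bp, with 46 narrower than the nearer one. Few peaks scored above the pair, so most of these 100 scored lower than it, and the comparison is with mostly weaker peaks. Wide peaks were present among them, up to 7759 bp in replicate 1 and 8093 bp in replicate 2. The 7759 bp peak scored 602.16, below both Hmox1 peaks of its list. Of the 12 peaks that scored above the farther Hmox1 peak in replicate 1, 5 were over 2000 bp wide and 6 had at least 2 other peaks within 100 kb. In replicate 2, 0 of the 6 peaks above it were over 2000 bp wide and 2 had at least 2 other peaks within 100 kb.

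**Figure D3:**
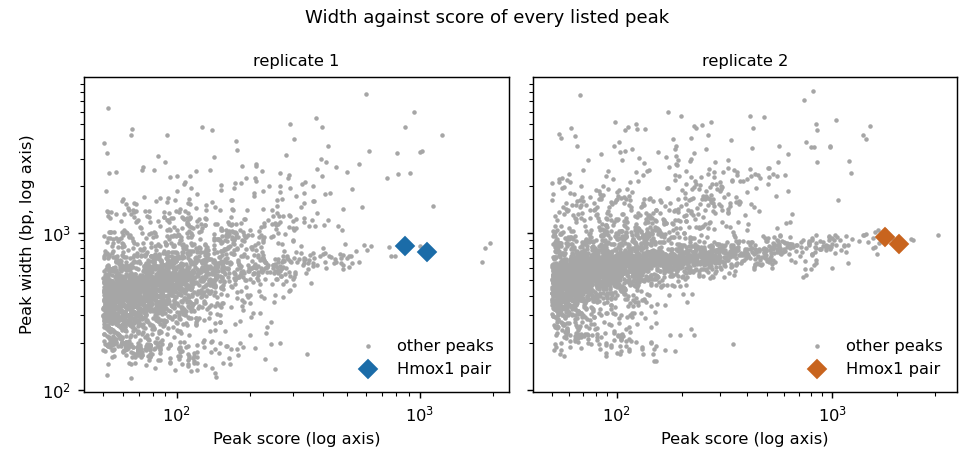
Width of every listed peak in bp (vertical axis, log scale) against its score (horizontal axis, log scale), with 1 panel per replicate and the Hmox1 pair as diamonds. The pair is 764 to 941 bp wide, and peaks of like score spread more in width in replicate 1 than in replicate 2.

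Strong peaks seldom came as close pairs away from crowded stretches. Neighbouring peaks were counted as a close pair when both lay in the top 5% of their list by score and their centres were within 10 kb. Replicate 1 had 144 peaks in its top 5%, with scores of at least 274.4, and 28 of them (19.4%) belonged to a close pair. Replicate 2 had 179, with scores of at least 491, and 10 of them (5.59%) did. These peaks formed 15 close pairs in replicate 1 and 5 in replicate 2. Ordered by the lower of the scores in a pair, the Hmox1 pair came first in each list. In replicate 1 the next pair had a lower score of 618.45, against 868.54 at Hmox1, and in replicate 2 it had 1028.17, against 1748.6.

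Of the 15 close pairs of replicate 1, only the Hmox1 pair had no other listed peak than the partner within 100 kb. In replicate 2 that held for 2 of the 5, the Hmox1 pair and one on chromosome 16 at 14350515 to 14351454 and 14352457 to 14353206. Exactly 1 other peak within 100 kb was found for 8 of 144 peaks (5.56%) in the top 5% of replicate 1. In replicate 2 it was found for 45 of 179 (25.1%), so a single companion was not rare there. Over all listed peaks the counts were 364 of 2892 in replicate 1 and 645 of 3593 in replicate 2. The share in the top 5% was thus below that of the whole list in replicate 1 and above it in replicate 2.

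Pairs that met the close-pair definition in both lists, with both peaks overlapping between the lists, numbered 4. Other close pairs also had both peaks overlapping the other list, but did not form a close pair there. The 4 that met the definition in both lists included the Hmox1 pair and the pair on chromosome 16 just named. The remaining ones began, in replicate 1, at 3241795 on chromosome 16 and at 19751522 on chromosome 8. The pair at 14350701 in replicate 1 was the most like Hmox1 in width, with peaks of 720 and 771 bp, but its centres were 1833.5 bp apart and its scores of 793.21 and 275.96 differed 2.87-fold. In replicate 2 the scores of that pair were 1895.94 and 1028.17, a ratio of 1.84. The other 2 lay among 10 to 18 other peaks within 100 kb, and their peaks were 1602 to 4039 bp wide. The peaks of the Hmox1 pair were the most equal in score of the 4, with ratios of 1.24 and 1.17 against 1.79 to 2.87 in replicate 1 and 1.64 to 1.84 in replicate 2. Over all 15 close pairs of replicate 1, however, 6 were more equal than Hmox1. These comparisons describe single pairs in 2 lists and were not tested.

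**Figure D4:**
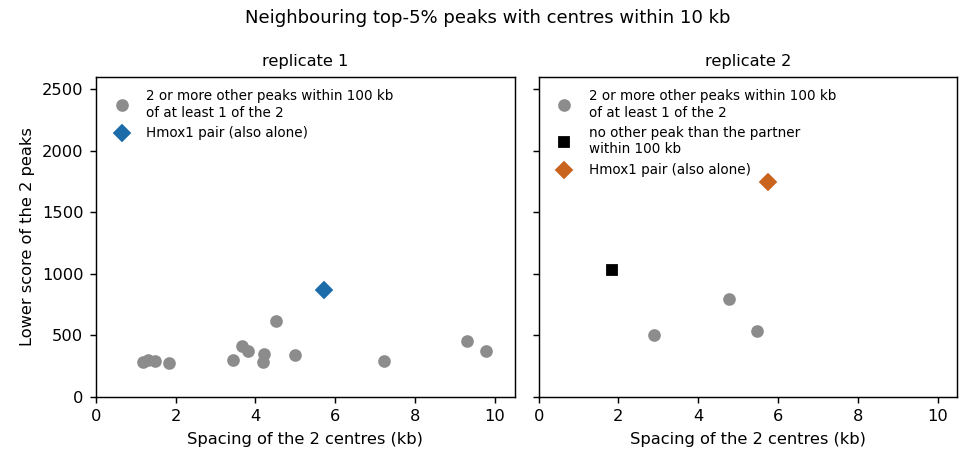
Close pairs of top 5% peaks, plotted by the spacing of their centres (horizontal axis, kb) and the lower of their scores (vertical axis), with 1 panel per replicate. The Hmox1 pair (diamond, spacing 5.72 and 5.76 kb) is the highest point in both panels. Circles are pairs among other peaks, and the square is the other pair with no further peak within 100 kb.

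Among all 1750 regions shared between the lists, ordered by the worse of their ranks, 5 had a worse rank of 10 or better. The nearer Hmox1 peak was one of these, and the farther one followed directly with a worse rank of 13. The other 4 lay on chromosome 13 (12905848 to 12906817), chromosome 4 (14825608 to 14826521), chromosome X (73843806 to 73844674) and chromosome 11 (75196743 to 75197642). None of these 4 had another shared region within 10 kb. The region on chromosome 13 had its nearest at 11.5 kb and the one on chromosome X at 955 kb. Among the first 6 shared regions, the Hmox1 sites were thus the only ones with another shared region within 10 kb, each being the neighbour of the other. This was not particular to Hmox1 further down the order. Regions 9 and 10, both on chromosome 16, had 1 and 2 other shared regions within 10 kb.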

How the data were processed

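Peak lists of 2 Nrf2 ChIP replicates were analysed. The input was not used. The submitters' processing notes name bcl2fastq 2.15.0, Bowtie2 and MACS 1.4 with the mm9 build, but no roles or settings. The sources used here do not say whether the input was a control. Column 5 is a score deposited by the authors. It was taken for -10 log10 p of the caller, since a lowest score of 50 then matches a threshold of 1e-05. Depth is unknown. Nothing says whether the replicates were separate cultures, so their agreement may be technical.

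The window and start site came from the rule that defined the locus. The members, the close-pair definition and the other measures were chosen with earlier results of these data known. The named regions are the Hmox1 locus, its neighbouring genes and shared regions with a worse rank of 10 or better. The other close pairs, the nearest peaks outside the window and the third highest peaks of chromosome 8 were named after their values were seen. Peaks overlapping by at least 1 bp were shared, and chains of them were merged. Ranks run from the highest score. Distances are between centres unless edges are named. The functions were tested on simulated lists. A promoter sequence search had been planned and was not run. Python 3.11.15, NumPy 2.4.6 and matplotlib 3.10.9 were used.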

Additional observations from a re-analysis of the deposited data

How the results depend on the processing

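The counts of peaks in the window, of shared peaks and of neighbours within 50 or 500 kb were the same under every alternative run for them. This was largely fixed beforehand, since the pair scored 868.54 or more and the nearest other peak lay 3.02 Mb away. Leaving out replicate 1 or 2 in turn moved the mean distances to 9.62 and 9.63 kb and to 3.86 and 3.91 kb, the spacing to 5760 and 5721.5 bp and the score ratio to 1.17 and 1.24. Of 64 alternative values, 48 stayed within the spread between replicates or within 1.5 times a count, and 16 moved further. The width ratio between replicates has no such spread, and the SD over the 2 Hmox1 peaks (0.0189) was used for it instead. Its medians of 1.37 on chromosomes 2 to 19 and 1.23 at scores of at least 200 in both lists are among the 16. With 2 replicates, leaving 1 out cannot move a mean beyond their SD, so those values were bound to stay. The 48 are therefore no measure of robustness. Measured from the gene-facing edge, the mean distances were 9.18 and 3.48 kb, and the gap between facing edges was 4895.5 bp. These differ by construction. The score ratio per bp was 1.32. The farther peak of replicate 1 ranked 7 among peaks with fewer than 2 others within 100 kb and 19 by score per bp. The number of close pairs depended most on the definition. In replicate 1 it was 2 in the top 1% and 56 in the top 10%. In replicate 2 it was 1 and 27, with 3 for centres within 5 kb and 9 within 20 kb. A limit of 5 kb leaves out the Hmox1 pair itself. No paired analysis was possible because only the ChIP samples form a replicated group. The unknown depth limits any reading of absent or weak peaks.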
